A study of Mus musculus with 16 samples.

Results

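The genes described here are Mmp8, Mmp9, Retnlg, S100a8 and S100a9, which encode secretory and cytosolic proteins of maturing neutrophils. They were chosen by symbol, with earlier results of these data known, as 5 of the 10296 genes listed in the study. All 5 passed the filter on low values. Counts of members set beside shares of all genes are therefore a description. Each was followed through 16 libraries of neutrophils sorted from C57BL/6 mice with antibodies to CD45, CD11b and Ly6G and the viability dye DAPI. Germ-free mice (GF) have lived with no microbes, and specific pathogen free mice (SPF) have a normal flora without listed pathogens. Lung and spleen each gave 3 GF and 3 SPF libraries, and blood gave 2 GF and 2 SPF libraries. No group carried a genetic change or a drug treatment by its labels, and age is not given in the sources used here. Whether replicates of a group were different animals is not stated, so the p-values rest on a spread between libraries that may be technical only.

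Neutrophils load their granules in sequence as they mature in the bone marrow, with the primary granules made before the specific granules and the gelatinase granules made last. Mmp9 encodes gelatinase B, a metalloproteinase that degrades denatured and basement membrane collagen and is the name-giving cargo of the gelatinase granule. Mmp8 encodes neutrophil collagenase, which cleaves fibrillar collagen and, in human neutrophils, lies in the specific granule. S100a8 and S100a9 encode calcium-binding subunits of calprotectin, an abundant cytosolic heterodimer that withholds zinc and manganese from microbes and is a ligand of the receptor TLR4 once released. Retnlg encodes resistin-like gamma, a small secreted protein of rodents whose transcript is a usual marker of mature mouse neutrophils.

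In the mouse assembly GRCm38, S100a8 (ENSMUSG00000056054) lies on chromosome 3 from 90668978 to 90670035 on the plus strand. S100a9 (ENSMUSG00000056071) lies next to it on the same chromosome, from 90692632 to 90695721 on the minus strand. Mmp8 (ENSMUSG00000005800) lies on chromosome 9 from 7558456 to 7568485, Mmp9 (ENSMUSG00000017737) on chromosome 2 from 164940780 to 164955850 and Retnlg (ENSMUSG00000022651) on chromosome 16 from 48872621 to 48874496, all on the plus strand. Promoters are shown because S100a8, S100a9 and Retnlg varied together between libraries while Mmp8 followed them less closely, as described further on. Whether the promoter letters bear on this was not tested. The RefSeq promoter table (GRCm38.p6) matched 4 of the 5 genes, all but Mmp9, with 250 bases before and 50 bases after the annotated start. For S100a8, Mmp8 and Retnlg this RefSeq start is not the gene start given above. Motif positions count from the RefSeq start. The sequences run 5′ to 3′ on the strand of the gene, and capitals mark the motif matches named after them.
S100a8, chr3:90668821-90669120, plus strand: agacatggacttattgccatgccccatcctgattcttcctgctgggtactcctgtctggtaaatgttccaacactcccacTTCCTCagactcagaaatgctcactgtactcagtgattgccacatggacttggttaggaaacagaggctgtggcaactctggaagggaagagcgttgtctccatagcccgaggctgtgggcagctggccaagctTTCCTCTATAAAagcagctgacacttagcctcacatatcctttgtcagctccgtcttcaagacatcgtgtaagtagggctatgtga
S100a9, chr3:90695672-90695971, minus strand: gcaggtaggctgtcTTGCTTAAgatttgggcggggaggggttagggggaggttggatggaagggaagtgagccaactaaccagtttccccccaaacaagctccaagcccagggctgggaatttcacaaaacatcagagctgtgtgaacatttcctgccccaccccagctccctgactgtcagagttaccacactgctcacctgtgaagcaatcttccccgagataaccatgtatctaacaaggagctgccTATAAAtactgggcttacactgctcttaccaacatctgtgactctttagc
Mmp8, chr9:7558179-7558478, plus strand: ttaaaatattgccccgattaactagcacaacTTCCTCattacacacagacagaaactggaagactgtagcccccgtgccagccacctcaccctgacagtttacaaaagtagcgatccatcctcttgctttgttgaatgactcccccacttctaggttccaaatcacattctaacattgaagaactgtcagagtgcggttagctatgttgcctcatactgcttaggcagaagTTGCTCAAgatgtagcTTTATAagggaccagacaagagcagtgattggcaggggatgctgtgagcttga
Retnlg, chr16:48872358-48872657, plus strand: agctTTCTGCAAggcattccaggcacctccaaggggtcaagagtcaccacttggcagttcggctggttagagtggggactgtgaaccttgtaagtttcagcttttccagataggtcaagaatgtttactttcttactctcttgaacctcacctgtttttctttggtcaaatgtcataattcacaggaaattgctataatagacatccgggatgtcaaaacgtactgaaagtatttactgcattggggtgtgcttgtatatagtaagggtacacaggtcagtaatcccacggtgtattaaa

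Both strands of these windows were searched for the TATA box TATAAA, the C/EBP-type site TTGCNNAA, the PU.1 core GAGGAA and the AP-1 site TGANTCA. S100a8 held TATAAA with its first base at -30 from the start, and GAGGAA on the reverse strand at -170 and -36, where the letters read TTCCTC; the match at -36 adjoins the TATA box. S100a9 held TATAAA from the annotated start itself and a C/EBP-type site at -236. Mmp8 held TATAAA only on the reverse strand at -3, a C/EBP-type site at -19 and GAGGAA on the reverse strand at -219. Retnlg held a C/EBP-type site on the reverse strand at -246, and none of the other motifs was found in its window. No AP-1 letters were found in these 4 windows. Of 32817 promoters of the same length, 13.6% held TATAAA, 10.8% the C/EBP-type site, 28.3% GAGGAA and 7.81% the AP-1 site. Such matches describe letters and show no binding.

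Library depth, as reads recovered from the deposited values, ranged from 104213 to 3033941, with a median of 856319 in lung, 199487 in spleen and 2712907 in blood. Normalised counts, the unit of all levels here, are deposited values minus an offset of 0.5 reads, and 5 libraries held under 250000 reads (GF blood replicate 3, GF spleen replicates 1 and 4, and SPF spleen replicates 1 and 4). The sorted population carried neutrophil transcripts in every group: Csf3r, the receptor for granulocyte colony-stimulating factor, had its highest group mean in SPF spleen, 8854, and its lowest in SPF blood, 5387. The 7 measured neutrophil markers include Csf3r and the members S100a8, S100a9 and Retnlg. Their sums averaged 31037 in GF lung, 36751 in SPF lung, 42331 in GF spleen, 51421 in SPF spleen, 50601 in GF blood and 75595 in SPF blood. Of the 7, 2 fell and 0 rose in lung against spleen in each status. Against blood, 1 fell and 0 rose in GF lung, and 3 fell and 1 rose in SPF lung. Ly6g, which encodes the antigen used in the sort, was low everywhere and stood at 20.3 to 44.2 in GF lung, 41.6 to 51.3 in SPF lung, 72.1 to 410.8 in GF spleen, 114.3 to 174.0 in SPF spleen, 29.6 to 97.3 in GF blood and 149.4 to 170.3 in SPF blood. Transcripts of other cells differed between the tissues. The 11 measured markers of lung structural cells summed to 5158 to 12066 in GF lung and 3145 to 6419 in SPF lung, against 12.3 to 35.5 in spleen and 18.2 to 51.9 in blood, and all 11 were called higher in lung in each lung comparison. Of these, 6 were at 0 in all GF spleen libraries and 6 in all SPF spleen libraries, among them Sftpb, Sftpd and Cav1. The 9 measured markers of erythroid cells and platelets summed to 47.8 to 2080 in lung, to 48.1 to 21992 in spleen, where the highest was GF spleen replicate 1, and to 44309 to 99526 in blood. The 8 measured B cell markers summed to 832 to 1070 in lung, 568 to 907 in spleen and 509 to 726 in blood. Of these, 1 was called higher in GF lung against GF spleen, 2 against GF blood, 3 in SPF lung against SPF spleen and 7 against SPF blood. The 10 measured macrophage markers, of which 8 were tested, summed to 1201 to 1306 in lung, 1467 to 1802 in spleen and 1319 to 1903 in blood. In lung against spleen 0 of them were called, while against blood 1 rose and 1 fell in GF lung and 3 rose and 2 fell in SPF lung. The part of these transcripts in the tissue differences given here was not tested. In bulk samples, fewer cells of a type and less RNA per cell cannot be told apart.

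Together the 5 genes took 2.23% to 2.72% of the reads in GF lung, 2.36% to 4.20% in SPF lung, 2.50% to 6.15% in GF spleen, 3.54% to 5.78% in SPF spleen, 3.94% to 4.28% in GF blood and 5.36% to 6.05% in SPF blood. S100a9 made the most transcript per kilobase of exon of all genes in 14 of 16 libraries, and ranked 2 and 4 in the GF blood libraries. S100a8 ranked between 2 and 5, Retnlg between 11 and 31, Mmp9 between 12 and 47 and Mmp8 between 38 and 111 on the same per-length scale. The least sampled value was Retnlg in SPF spleen replicate 1, which rested on 156 reads. The genes also differed in how far they varied: the highest library exceeded the lowest by 5.90 times for Retnlg, 4.96 times for S100a8, 4.64 times for S100a9, 2.95 times for Mmp8 and 2.67 times for Mmp9.

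**Figure D1:**
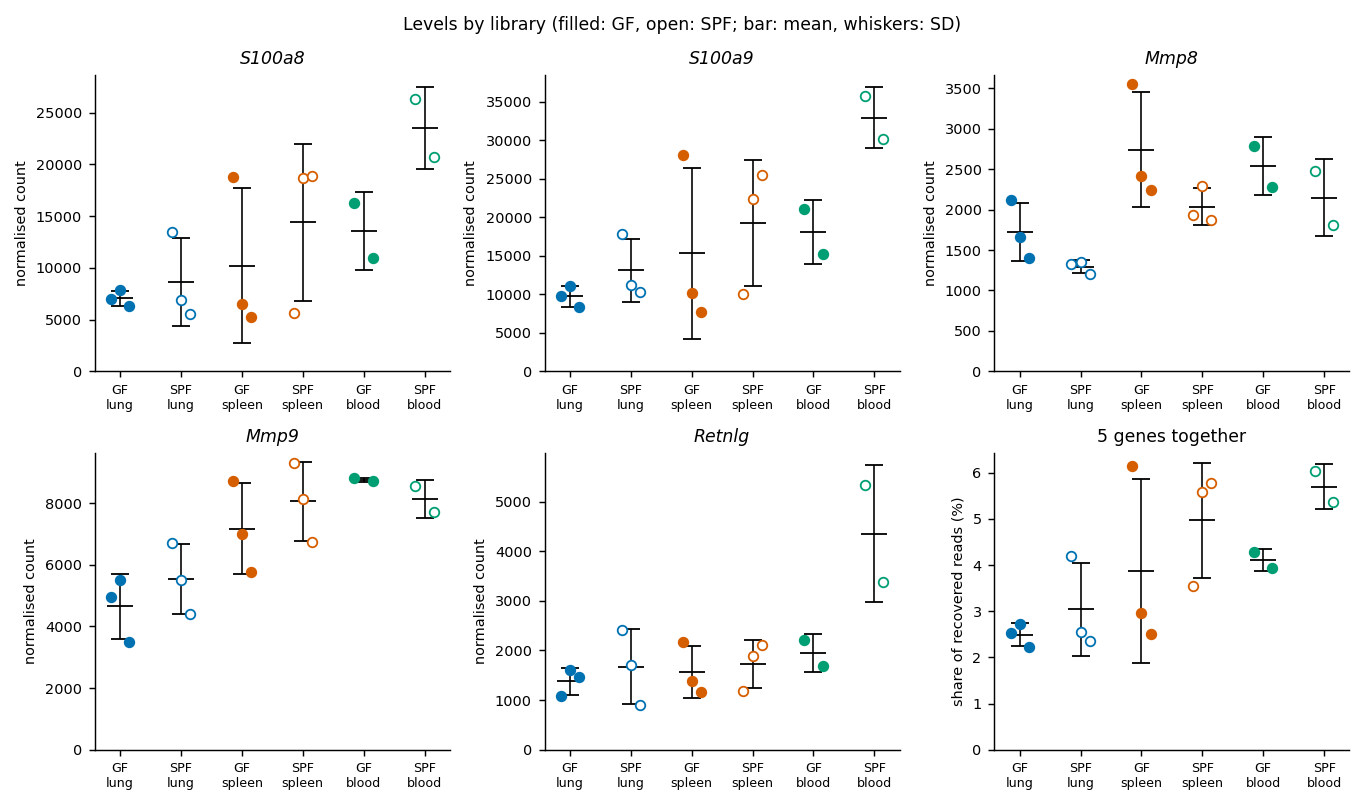
Normalised count of each gene in each library (vertical axis, linear, from 0), and the share of recovered reads taken by the 5 genes together (last panel, percent), by group; filled points are GF, open points SPF, bars are means and whiskers SD. The lung libraries of Mmp9 lie at 3488 to 6699, against 7698 to 8804 in blood, whereas the spleen libraries of S100a8 spread from 5298 to 18862.

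The metalloproteinase genes separated lung from spleen. Mmp8 stood at 2113, 1655 and 1402 normalised counts in GF lung and at 1332, 1349 and 1206 in SPF lung. In spleen it stood at 3551, 2419 and 2241 in GF and at 1936, 2294 and 1876 in SPF libraries, and in blood at 2791 and 2282 in GF and at 2481 and 1809 in SPF libraries. Every lung library lay below every spleen and blood library of the same status. Mmp9 stood at 4947, 5508 and 3488 in GF lung and at 6699, 5503 and 4413 in SPF lung. In spleen it stood at 8734, 6999 and 5778 in GF and at 9299, 8134 and 6734 in SPF libraries, and in blood at 8804 and 8704 in GF and at 8563 and 7698 in SPF libraries. Again the lung groups did not overlap the spleen or blood group of their status, and the blood libraries of Mmp9 were the most alike, with an SD of 71.1 around 8754 in GF blood.

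In GF mice, Mmp8 was 1.58-fold lower in lung than in spleen, a log2 difference of -0.66 (SE 0.19, 95% interval -1.04 to -0.27, adjusted p = 0.0210, limma). Mmp9 was 1.55-fold lower in the same comparison (log2 difference -0.63, SE 0.18, adjusted p = 0.0203). Thus 2 of 5 members fell in GF lung against GF spleen, where 10.2% of all tested genes were called and 2.14% were called lower; the same 2 were the members whose groups did not overlap, which held on the lower side for 9.47% of genes. In SPF mice, Mmp8 was 1.57-fold lower in lung than in spleen (log2 difference -0.65, SE 0.19, adjusted p = 0.0239), and Mmp9 was 1.46-fold lower (log2 difference -0.55, SE 0.18, adjusted p = 0.0498). That is again 2 of 5 members, with 9.66% of all genes called, 1.99% called lower and 9.05% lower without overlap. The median over the 5 members was -0.43 in GF and -0.55 in SPF mice, beside 0.11 and 0.06 over all genes. The calls depended on single libraries. In GF mice the call of Mmp8 was lost without lung replicate 3 (-0.64), lung replicate 4 (-0.52) or spleen replicate 1 (-0.46), and that of Mmp9 without lung replicate 4 (-0.44), spleen replicate 1 (-0.48) or spleen replicate 3 (-0.64). In SPF mice the call of Mmp8 was lost without lung replicate 1 (-0.67), 2 (-0.68) or 3 (-0.60) or spleen replicate 2 (-0.56). The SPF call of Mmp9 was lost without SPF lung replicate 2 (-0.55) or 3 (-0.40) or SPF spleen replicate 1 (-0.44) or 2 (-0.54), and, with the difference itself unchanged at -0.55, without GF lung replicate 2, GF spleen replicate 3 or any of the 4 blood libraries. Without the 5 libraries under 250000 reads, the GF calls of both genes and the SPF call of Mmp9 were lost, with log2 differences of -0.51 and -0.62 in GF mice and -0.58 in SPF mice. With replicate number fitted as a block, the GF calls of Mmp8 (-0.60, adjusted p = 0.0668) and Mmp9 (-0.55, adjusted p = 0.0579) were lost too.

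Against blood, Mmp9 was 1.92-fold lower in GF lung (log2 difference -0.94, SE 0.20, adjusted p = 0.00157), and this call held with each of the 16 libraries left out in turn but not under quantile rescaling (-0.38, adjusted p = 0.158). It was the 1 of 5 members called in that comparison, where 9.8% of all genes were called and 1.96% were called lower. All 5 members were lower in each GF lung library than in each GF blood library, a gap seen on the lower side in 16.1% of genes. Mmp8 differed by -0.57 (SE 0.21, adjusted p = 0.0871), and by -0.73 with an adjusted p of 0.0482 without GF lung replicate 2. In SPF mice, Mmp8 was 1.64-fold lower in lung than in blood (log2 difference -0.71, SE 0.21, adjusted p = 0.0166) and Mmp9 1.49-fold lower (-0.57, SE 0.20, adjusted p = 0.0444), the Mmp9 value with a sign that turned to 0.06 under quantile rescaling. With Retnlg, described further on, 3 of 5 members fell in SPF lung against SPF blood, where 19.1% of all genes were called and 6.63% were called lower. Here too the lung lay below the blood in every library for all 5 members, as for 22.8% of genes. The call of Mmp8 was lost under quantile rescaling (-0.38, adjusted p = 0.162) and without SPF lung replicate 3 (-0.66) or SPF blood replicate 3 (-0.48). That of Mmp9 was lost under median-ratio rescaling (-0.51, adjusted p = 0.0990) and without SPF lung replicate 2 (-0.58) or 3 (-0.42) or SPF blood replicate 3 (-0.50) or 4 (-0.65), and with the difference unchanged without GF lung replicate 2, GF spleen replicate 3, SPF spleen replicate 2 or either GF blood library. The median over the 5 members was -0.89 in GF and -1.37 in SPF mice, beside 0.15 and 0.16 over all genes. Without the trended and robust prior, no call of Mmp8 or Mmp9 held in any lung comparison, and limma-voom made all of these calls and that of Mmp8 in GF lung against GF blood. The comparisons of lung with spleen and with blood share the lung libraries.

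No difference between spleen and blood was called for either metalloproteinase. In GF mice the log2 difference between spleen and blood was 0.09 for Mmp8 (95% interval -0.35 to 0.52) and -0.31 for Mmp9 (-0.72 to 0.10). In SPF mice it was -0.06 for Mmp8 (-0.49 to 0.37) and -0.02 for Mmp9 (-0.43 to 0.39), where quantile rescaling gave 0.45 and 0.64 and median-ratio rescaling 0.05 and 0.09. None of the 5 members was called between spleen and blood by limma in GF mice, where 0.88% of genes were called; none had an unadjusted p under 0.05 and limma-voom also called 0. In SPF mice, where 7.06% were called, limma again called 0 members, Retnlg alone had an unadjusted p under 0.05, and limma-voom called 1, Retnlg.

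**Figure D2:**
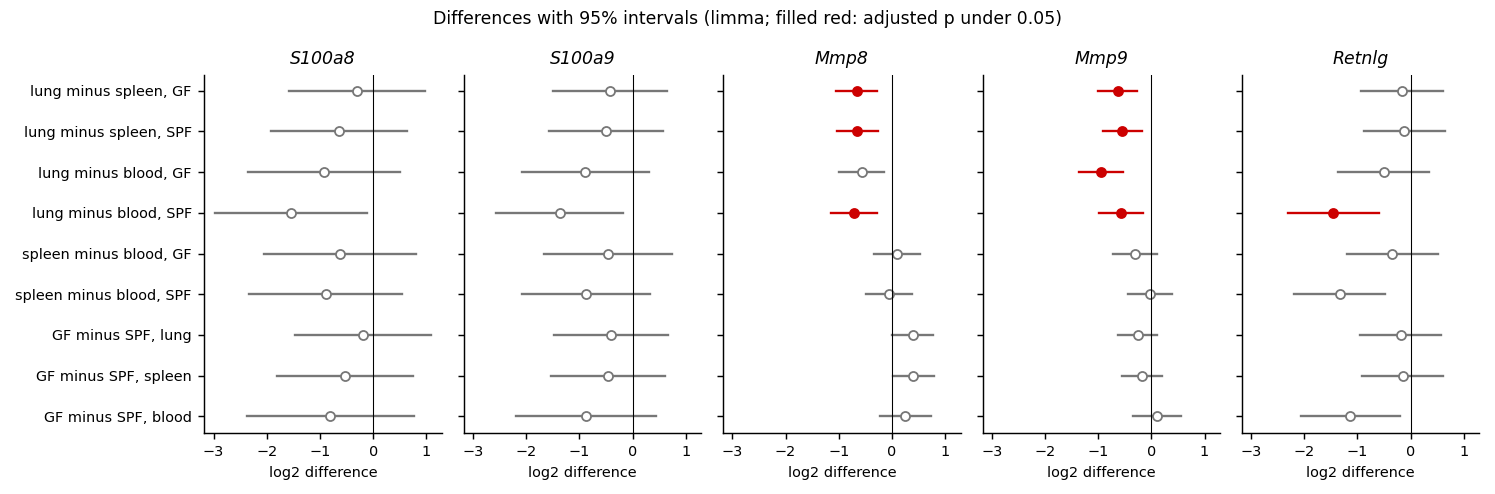
Log2 difference (horizontal axis) with its 95% interval for each gene in 9 comparisons, from limma; filled red points have an adjusted p under 0.05. The filled points of Mmp8 and Mmp9 lie between -0.94 and -0.55 in comparisons of lung with spleen or blood, and the intervals of S100a8 and S100a9 are wider than those of the metalloproteinases.

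The balance between the metalloproteinases differed with the microbial status of the mice. The ratio of Mmp8 to Mmp9 was taken within each library, so that it does not depend on the scaling between libraries. It was 0.427, 0.3005 and 0.402 in GF lung, against 0.199, 0.245 and 0.273 in SPF lung. In spleen it was 0.407, 0.346 and 0.388 in GF libraries, against 0.209, 0.282 and 0.279 in SPF libraries. Both tissues therefore showed every GF library above every SPF library, whereas in blood the ratios overlapped, at 0.317 and 0.262 in GF against 0.290 and 0.235 in SPF libraries. On the log2 scale the ratio averaged -1.51 ± 0.25 in GF and -2.00 ± 0.21 in SPF libraries (SD, n = 8 each), a difference of 0.50 (exact permutation test over libraries, two-sided, p = 0.00124, adjusted p = 0.00995 over 8 ratio comparisons). Within tissues the log2 difference was 0.65 in lung, 0.58 in spleen and 0.14 in blood. Across the 19 alternative settings the difference over all libraries lay between 0.45 and 0.56, with adjusted p between 0.00124 and 0.0211. The permutation test took the 8 libraries of each status as separate units. Lung, spleen and blood libraries of a status may come from the same mice, which the labels do not say. No alternative grouped libraries by replicate number, and with shared mice the p-values may be too small.

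Neither gene passed by itself. Mmp8 averaged 1723 ± 360.4 in GF and 1296 ± 78.4 in SPF lung, without overlap, a log2 difference of 0.39 (SE 0.19, adjusted p = 0.999). It averaged 2737 ± 710.8 in GF and 2035 ± 225.9 in SPF spleen (0.40, adjusted p = 0.381), and 2536 ± 360.2 in GF and 2145 ± 475.4 in SPF blood (0.25, adjusted p = 0.610). Averaged over the 3 tissues the difference of Mmp8 was 0.35 (95% interval 0.11 to 0.59, adjusted p = 0.138). For Mmp9 the same average was -0.11 (-0.34 to 0.12, adjusted p = 0.686), with -0.26 in lung, -0.18 in spleen and 0.11 in blood. The ratio of Mmp8 to Mmp9 did not pass between tissues, with log2 differences of -0.06 for lung minus spleen, 0.11 for lung minus blood and 0.18 for spleen minus blood (exact permutation tests, adjusted p = 0.911, 0.825 and 0.716).

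**Figure D3:**
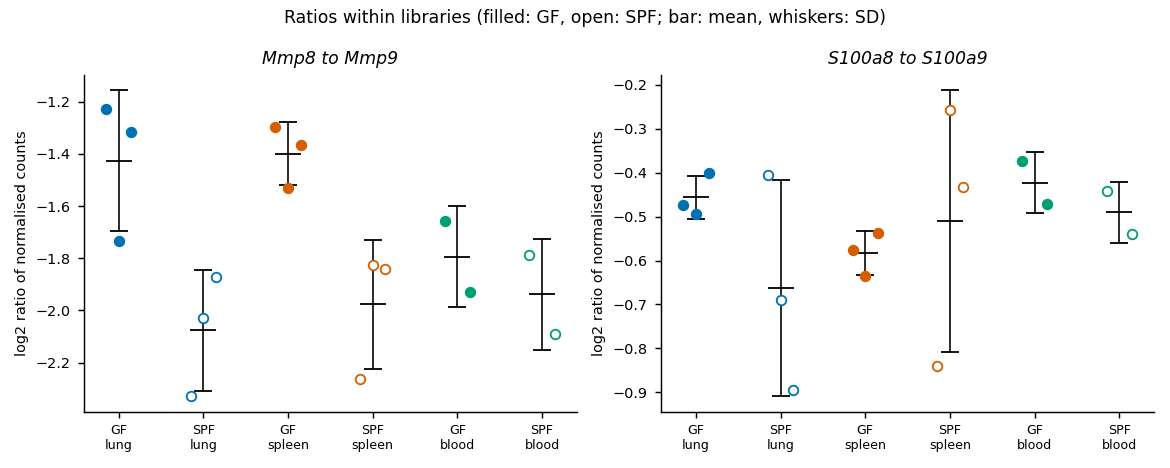
Log2 ratio of normalised counts within each library (vertical axis), Mmp8 to Mmp9 on the left and S100a8 to S100a9 on the right, by group; filled points are GF, open points SPF, bars are means and whiskers SD. For Mmp8 to Mmp9 the GF points lie above the SPF points in lung and spleen, and the mean difference over all libraries is 0.50.

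The calprotectin genes were the most abundant of the set per length and, with Retnlg, the most uneven over the 16 libraries. S100a8 stood at 7022, 7818 and 6346 in GF lung and at 13479, 6921 and 5550.4 in SPF lung. In spleen it stood at 18815, 6537 and 5298 in GF and at 5618, 18672 and 18862 in SPF libraries, and in blood at 16263 and 10940 in GF and at 26287 and 20731 in SPF libraries. The spleen libraries thus fell apart into high ones (GF replicate 1 and SPF replicates 2 and 4) and low ones (GF replicates 3 and 4 and SPF replicate 1), and the split ran across the status. S100a9 stood at 9743, 11019 and 8376 in GF lung and at 17841, 11159 and 10322 in SPF lung. In spleen it stood at 28052, 10158 and 7689 in GF and at 10054, 22324 and 25456 in SPF libraries, and in blood at 21056 and 15176 in GF and at 35710.0 and 30120.0 in SPF libraries. The same 3 spleen libraries were high for both genes, and SPF blood held the highest libraries of all for both. The high spleen libraries had 196633, 640596 and 202341 reads and the low ones 376985, 147645 and 104213, in the order named above. Of the high ones, GF replicate 1 also held 21992 normalised counts of erythroid and platelet markers, whereas the SPF libraries held 90.9 and 70.5.

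No comparison of tissues or status was called for either gene. In SPF mice, S100a8 averaged 8650 ± 4238 in lung and 23509 ± 3929 in blood, a log2 difference of -1.54 (SE 0.64, 95% interval -2.97 to -0.11, adjusted p = 0.131), and S100a9 averaged 13107 ± 4121 in lung and 32915 ± 3953 in blood, a difference of -1.37 (SE 0.54, -2.56 to -0.17, adjusted p = 0.111). Both passed with limma-voom (adjusted p = 0.0389 and 0.0364), with array weights and without the 5 libraries under 250000 reads, and S100a9 also without GF spleen replicate 1 (adjusted p = 0.0286). In GF mice the difference between lung and blood was -0.92 for S100a8 (-2.35 to 0.51) and -0.89 for S100a9 (-2.09 to 0.31), the last at 0.00 under quantile rescaling. Lung minus spleen gave -0.30 (-1.58 to 0.98) and -0.43 (-1.50 to 0.64) in GF mice, and -0.64 (-1.92 to 0.63) and -0.49 (-1.56 to 0.58) in SPF mice, for S100a8 and S100a9 in that order. Without the 5 shallow libraries, S100a9 passed in lung minus spleen in SPF mice (-0.81, adjusted p = 0.0337) and in lung minus blood in GF mice (-1.13, adjusted p = 0.00260). These intervals are wide enough to hold differences larger than those called for Mmp8 and Mmp9.

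The calprotectin subunits varied together. The ratio of S100a8 to S100a9 lay between 0.538 and 0.836 over the 16 libraries, and averaged -0.53 ± 0.17 on the log2 scale (SD, n = 16). The ratio was -0.46 ± 0.05 in GF lung, -0.66 ± 0.25 in SPF lung, -0.58 ± 0.05 in GF spleen, -0.51 ± 0.30 in SPF spleen, -0.42 ± 0.07 in GF blood and -0.49 ± 0.07 in SPF blood. None of its 4 comparisons passed in exact permutation tests (adjusted p = 0.911 for lung minus spleen and 0.716 for the others), and the GF minus SPF difference was 0.07. Normalised counts of S100a8 and S100a9 correlated over all 16 libraries (Pearson r = 0.98 on the log2 scale, Spearman rho = 0.94), as they did over the 6 spleen libraries (r = 0.98). These points share tissue, depth and scaling, so the values are given as a description.

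Retnlg followed the calprotectin genes over all libraries and in spleen, and less closely in lung. It stood at 1074, 1602 and 1461 in GF lung and at 2410.3, 1708 and 904.8 in SPF lung. In spleen it stood at 2166, 1380.0 and 1171 in GF and at 1189, 1894 and 2116 in SPF libraries, and in blood at 2217 and 1682 in GF and at 5337 and 3377 in SPF libraries. The SPF blood libraries thus lay above all others, and lung and spleen overlapped. In SPF mice Retnlg averaged 1674 ± 753.3 in lung and 4357 ± 1386 in blood, which was 2.74-fold lower in lung (log2 difference -1.45, SE 0.40, adjusted p = 0.0203). The call was lost without SPF blood replicate 3 (-1.12), at equal depth (-1.31, adjusted p = 0.0932) and under quantile rescaling (adjusted p = 0.0644). With replicate number fitted as a block the call of Retnlg was lost too (-1.63, adjusted p = 0.173). In SPF spleen it averaged 1733 ± 484.0, a difference from SPF blood of -1.33 (SE 0.40, adjusted p = 0.0615), which passed without SPF lung replicate 1 (adjusted p = 0.0241), SPF lung replicate 3 (adjusted p = 0.00826) or GF spleen replicate 1 (adjusted p = 0.0406). Retnlg, S100a8 and S100a9 were lower in each SPF spleen library than in each SPF blood library, a gap on the lower side in 19.4% of genes. In GF mice the difference between lung and blood was -0.51 (SE 0.40, adjusted p = 0.516).

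Over the 6 spleen libraries the log2 levels of Retnlg correlated with those of S100a8 and S100a9 at r = 0.98 each, against 0.39 with Mmp8 and 0.23 with Mmp9. Over all 16 libraries the values were 0.88 with S100a8 and 0.87 with S100a9, against 0.28 with Mmp8 and 0.51 with Mmp9. Mmp8 and Mmp9 correlated at 0.68 over all libraries, at 0.06 over the 6 lung libraries and at 0.26 over the 6 spleen libraries. In lung, Mmp9 lay closer to S100a9 (r = 0.88) than did Mmp8 (r = -0.26). Over the 6 lung libraries Retnlg correlated at 0.84 with S100a8 and 0.70 with S100a9, against -0.19 with Mmp8 and 0.60 with Mmp9. There Mmp9 was thus closer to S100a9 than Retnlg was. No test was made of these differences.

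**Figure D4:**
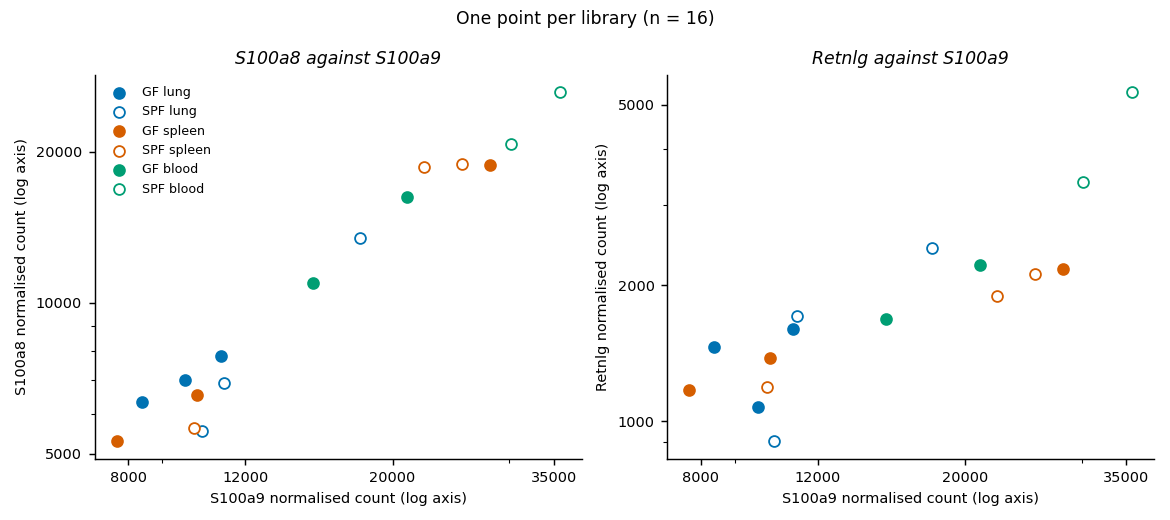
Normalised counts of S100a8 (left) and Retnlg (right) against those of S100a9, on log axes, with 1 point per library; filled points are GF, open points SPF, and colours give the tissue. The S100a8 points lie along a line (r = 0.98 on the log2 scale), with 3 spleen libraries of either status among the high points and 3 among the low ones.

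Microbial status gave no call for any of the 5 genes by itself. In blood, S100a8 averaged 13601 ± 3764 in GF and 23509 ± 3929 in SPF libraries (log2 difference -0.81, 95% interval -2.37 to 0.76, adjusted p = 0.606). S100a9 averaged 18116 ± 4157 in GF and 32915 ± 3953 in SPF blood (-0.88, -2.19 to 0.44, adjusted p = 0.504), and Retnlg 1950 ± 378.9 in GF and 4357 ± 1386 in SPF blood (-1.13, -2.07 to -0.20, adjusted p = 0.220). These 3 genes were lower in both GF blood libraries than in both SPF blood libraries and Mmp9 was higher, gaps that held for 26.4% of genes on the lower and 26.3% on the higher side. Limma called 0 of 5 members between GF and SPF in blood, where 1.33% of genes were called, in spleen, where 0.325% were, in lung, where 0.0241% were, and over the mean of the tissues, where 1.39% were. The members with an unadjusted p under 0.05 were Retnlg in blood, Mmp8 in spleen, Mmp8 in lung, and Mmp8 and Retnlg over the mean, and limma-voom called 0 in all 4. The median over the members was -0.19 in lung, -0.18 in spleen and -0.81 in blood, beside 0.03, 0.01 and 0.02 over all genes. Mmp8 was the member without overlap in lung, where 8.05% of genes were higher without overlap. Without the 5 shallow libraries, S100a9 passed over the mean of the tissues (-0.72, adjusted p = 0.0118). The effect of status was not called different between tissues for any member (0 of 5 by limma, by limma-voom and at an unadjusted p under 0.05 in each of 3 tests, with 0.012%, 0.012% and 0.759% of genes called). For Retnlg the difference between the effects in lung and in blood was 0.95 (95% interval -0.26 to 2.15).

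Other genes of the gelatinase granule were called in either direction, with more lower than higher in each comparison of lung. Of 23 listed proteins of the gelatinase granule and secretory vesicles besides the members, 20 were tested. In GF lung against GF spleen, 3 fell and 1 rose, with a median of -0.22. Those that fell were Cd177, a surface receptor of neutrophils (-2.25), Cybb, the catalytic subunit of the NADPH oxidase (-2.12), and Lyz2, lysozyme (-0.95), and the one that rose was Stom, a membrane scaffold (2.13). Against GF blood, 3 fell and 1 rose, with a median of -0.42: Cfp, properdin (-0.79), Hp, haptoglobin (-0.73), and Itgb2, the beta chain of Mac-1 (-0.68), fell, and Vamp2, a protein of vesicle fusion (1.78), rose. In SPF mice, 3 fell and 1 rose in lung against spleen (median -0.17). In SPF lung against SPF blood 6 fell and 2 rose (median -0.22), among them Hp (-1.29) and Cfp (-1.20). Over all genes these medians were 0.11 and 0.06 against spleen and 0.15 and 0.16 against blood, for GF and SPF mice in that order. In the same order, 2.14% and 1.99% of all genes were called lower against spleen, and 1.96% and 6.63% against blood. Of the 20, 13 and 12 were below 0 against spleen, and 13 and 14 against blood. In spleen against blood, 2 rose and 0 fell in GF mice, and 2 rose and 4 fell in SPF mice. Between GF and SPF blood, Adam8, a membrane-bound metalloproteinase, rose in GF (0.90), and no other listed gene of this group was called there. Over the mean of the tissues, Adam8 (0.57, adjusted p = 0.0116) and Cd177 (0.62, adjusted p = 0.0199) rose in GF against SPF mice, and 0 fell.

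Genes of the specific granule, which is made earlier, fell in lung against spleen. Of 11 listed proteins 9 were tested, and 8 fell in GF lung against GF spleen with a median of -3.36, among them Ltf, lactoferrin, at 194.1 ± 162.2 in GF lung and 7104 ± 3983 in GF spleen (-5.39, adjusted p = 0.00321), and Ngp, neutrophilic granule protein (-5.35). In SPF mice 6 fell with a median of -2.71. Against blood, 0 rose and 0 fell in GF lung and 1 fell in SPF lung, while 4 rose in GF spleen and 6 rose and 1 fell in SPF spleen. The summed level of the 9 genes was 2272 to 3162 in GF lung, 1502 to 1925 in SPF lung, 16498 to 41881 in GF spleen, 9436 to 14145 in SPF spleen, 2904 to 4152 in GF blood and 3215 to 3965 in SPF blood. By status, Tcn2, transcobalamin 2, rose in GF against SPF spleen (1.36, adjusted p = 0.00213), and 0 genes of the list were called in lung or blood. Over the mean of the tissues 3 rose in GF mice, Tcn2 (0.81), Chil3, a chitinase-like protein (1.37), and Cd177 (0.62), and 0 fell. Cd177 is also on the list of the gelatinase granule above, so it is counted in both. Of 7 primary granule proteins 2 were tested, Ctsc, cathepsin C, and Prss57, a serine protease. Ctsc rose in GF lung against GF spleen (1.37) and against GF blood (1.73) and in SPF lung against SPF blood (1.91), and Prss57 fell in SPF lung against SPF blood (-2.11).

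Of 14 other S100 genes 5 were tested. S100a6 and S100a11, widely expressed calcium-binding proteins of the family, fell in SPF lung against SPF blood (-1.65, adjusted p = 0.0209, and -1.31, adjusted p = 0.0477). S100a6 averaged 592.3 ± 202.6 in SPF lung and 1803 ± 283.4 in SPF blood. S100a10, the partner of annexin A2, rose in lung against spleen, by 1.77 in GF and 2.11 in SPF mice, and S100a1 rose in SPF lung against SPF spleen (2.37). No other gene of this list was called in a tissue comparison. The lung structural markers also rose in lung against spleen, and their part in the S100a10 and S100a1 differences was not tested.

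Of 12 listed receptors, partners and signalling products of S100A8/A9, all were tested. In lung against spleen, 4 rose in GF and 5 in SPF mice and 0 fell, and in lung against blood 4 rose and 3 fell in GF mice and 5 rose and 3 fell in SPF mice. Il1b, the cytokine interleukin-1 beta, averaged 24605 ± 4414 in GF lung, 29537 ± 1778 in SPF lung, 2968 ± 412.1 in GF spleen, 5139 ± 2011 in SPF spleen, 3555 ± 1037 in GF blood and 10254 ± 332.9 in SPF blood. Its log2 difference in GF mice was 3.04 for lung minus spleen (adjusted p = 2.41e-07) and 2.81 for lung minus blood (adjusted p = 2.63e-06). Cd14, a co-receptor of TLR4, averaged 3916 ± 94.2 in GF lung and 402.7 ± 26.1 in GF spleen (3.27, adjusted p = 0.000914). Tlr4 itself averaged 128.8 ± 14.3 in GF lung, 128.4 ± 44.0 in GF spleen and 122.9 ± 27.2 in GF blood and was not called in these. Cd36, a scavenger receptor, averaged 545.6 ± 166.4 in GF lung and was at 0 in every spleen library. Ager, the receptor RAGE, averaged 192.3 ± 23.6 in GF lung and 3.65 ± 3.20 in GF spleen. Ager is also on the list of lung structural markers given above. Those markers moved in the same direction as Cd36, and their part in its difference was not tested. Within blood, Il1b was lower in GF than in SPF libraries (-1.56).

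Among other metalloproteinases 2 of 14 were tested. Mmp2, gelatinase A, averaged 31.1 ± 13.7 in GF lung and 0.823 ± 1.43 in GF spleen (2.91, adjusted p = 0.00635). Mmp2 was also called higher in SPF lung against SPF blood, but not in GF lung against GF blood or in SPF lung against SPF spleen. Mmp25, a membrane-anchored metalloproteinase of neutrophils, was not called in a comparison of lung. Of 7 inhibitors of metalloproteinases 3 were tested, and Timp3, which binds to the matrix, averaged 156.9 ± 24.9 in GF lung and was at 0 in all GF spleen and GF blood libraries, a difference that passed. Mmp2 and Timp3 are made by stromal cells too, and the lung structural markers moved in the same direction; their part in this was not tested. Of 4 listed relatives and partners of resistin, Retn and Cap1 were tested, and neither was called in a lung comparison. Of 12 regulators and receptors of late neutrophil maturation 8 were tested. Cxcr2, the chemokine receptor of mature neutrophils, fell in lung against spleen and blood in both GF mice (-0.63 and -1.04) and SPF mice (-0.65 and -1.46), at 2708 ± 275.4 in GF lung, 4244 ± 908.0 in GF spleen and 5586 ± 699.6 in GF blood. Cxcr4, the receptor for CXCL12, rose in GF lung against GF blood (1.27).

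The search for similar genes covered 1390 protein-coding genes with a mean of at least 100, without the members and without genes of Gm or Rik names. The tested genes whose log2 levels were most like those of each member were sought among these, over all 16 libraries. For S100a8 they were Lst1 (r = 0.96), S100a6 (0.96) and Copz1 (0.93), and for S100a9 S100a6 (0.96), Ebi3 (0.94) and Lst1 (0.94). For Retnlg they were S100a6 (0.94), Txn1 (0.93) and Lst1 (0.93), so S100a6 and Lst1 stood in all 3 sets. For Mmp8 they were Rcsd1 (0.96), Lcn2 (0.86) and Hexa (0.86), and for Mmp9 Sephs2 (0.90), Tgfbi (0.88) and Ctsd (0.88), with no gene in common with the others. These correlations hold differences between tissues, depth and scaling, and are a description over these libraries.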

How the data were processed

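Neutrophils were sorted by flow cytometry, and RNA was amplified with a low-input kit and sequenced from both ends, per the labels' protocols, which mention no marking of strand. The submitters' processing notes name CASAVA, RSEM 1.3.1, limma and the assembly mm10. The scaling and the filter on genes are not given in the sources used here. The deposited table holds 1 signal value per gene and library. From the values, each signal is an estimated count plus 0.5 reads, scaled per library, so that 1 read is worth 0.392 to 7.62 units. Between 91.4% and 98.7% of the low values of each library (under 10 reads) were whole to within 0.05 reads, too few to treat the values as counts, so a count test listed among the alternatives was not run.

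Of 10296 identifiers, 10275 matched GENCODE M21 (GRCm38), which gave the coordinates and exon lengths. The filter asked for a value of 10 or more in 2 or more libraries (8299 genes kept, 1997 removed). Differences were fitted with limma 3.58.1 in R 4.3.3 on log2(value + 1), with 6 group means over all 16 libraries and with eBayes set to trend and robust. Tests were two-sided, and p-values were adjusted by Benjamini-Hochberg over all tested genes in each of 13 comparisons (threshold 0.05). This scale understates the change of low genes. Ratios were tested by exact permutation over libraries, with all arrangements listed in Python 3.11.15 and NumPy 2.4.6, and adjusted over 8 comparisons. The fit was tested on simulated data. Alternatives changed the pseudocount, the filter, the scaling, the prior, the weights, the depth and the libraries used, and limma-voom on recovered reads was added after seeing the data.

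The members and the gene lists were chosen with earlier results of these data known. Named genes are the 5 members, up to 4 genes of each list with the smallest p in lung comparisons of GF mice, further family members the text needs, and the 3 genes most correlated with each member. Itgam stood on 2 lines and was left out. Counting without strand could share reads between overlapping genes, and a depth of 104213 reads in the shallowest library limits precision.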

Additional observations from a re-analysis of the deposited data

How the results depend on the processing

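Of 1885 recomputed member differences, 1809 kept their side of the threshold, 53 lost a call, 21 gained one and 2 turned sign with a call. Sign also changed in 89 recomputed differences called neither before nor after, 49 of them with a single library left out, 10 each under quantile rescaling, with the replicate block and without the 5 shallow libraries (under 250000 reads), and 3 under median-ratio rescaling. Both sign changes with a call came under quantile rescaling, for Mmp9 in SPF mice: lung minus blood became 0.065 and spleen minus blood 0.64 (adjusted p = 0.0241). Unless a cause is named, the cause of these changes was not tested.

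Of the 5 members, the number called for lung minus spleen in GF mice (2) was 0 without the trended and robust prior, without the shallow libraries and with the replicate block, and 0 to 2 with single libraries left out. For lung minus blood in GF mice (1) it was 0 under quantile rescaling and without the prior, 2 under median-ratio rescaling and with limma-voom, 3 without the shallow libraries, and 1 to 2 with single libraries left out. For lung minus spleen in SPF mice (2) it was 1 with a pseudocount of 0.1, with a filter at 100 and with TMM rescaling, 0 without the prior, and 0 to 2 with single libraries left out. For lung minus blood in SPF mice (3) it was 0 under quantile rescaling, 1 without the prior, 5 with array weights, without the shallow libraries and with limma-voom, and 0 to 4 with single libraries left out. For spleen minus blood in SPF mice (0) it was 1 with a pseudocount of 0.1, a filter at 100, quantile rescaling and limma-voom, and 0 to 1 with single libraries left out. For GF minus SPF over the mean of the tissues (0) it was 1 without the shallow libraries.

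Counts over all genes moved by over 1.5 times in 147 of 377 recomputations. The lowest and highest over the 29 alternatives, beside the count reported, were 365 and 1020 (844) for lung minus spleen, 384 and 1446 (813) for lung minus blood and 29 and 153 (73) for spleen minus blood in GF mice. In SPF mice they were 419 and 1143 (802), 637 and 3105 (1585) and 39 and 1074 (586). For GF minus SPF they were 0 and 769 (110) in blood, 4 and 220 (27) in spleen, 0 and 5 (2) in lung and 10 and 368 (115) over the mean. For the differences in status effect they were 0 and 48 (1) for lung minus spleen, 0 and 59 (1) for lung minus blood and 0 and 207 (63) for spleen minus blood. Quantile rescaling put 58.7% of calls on the higher side in GF lung minus spleen (78.9% as reported), 65.8% in GF lung minus blood (79.95%), 60.6% in SPF lung minus spleen (79.4%) and 59.0% in SPF spleen minus blood (43.2%), and it moved the median of all genes in the lung comparisons to between -0.14 and -0.12.

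The labels do not say what equal replicate numbers mark. Over 9 such pairs of a status, deviations from the group means correlated between -0.22 and 0.24, and 4 exceeded 0.1. Of 33 pairs of a status with different numbers, 7 exceeded 0.1. The libraries were treated as unpaired, which remains an assumption. The correlations cannot decide whether libraries were paired, because deviations within so small a group are tied to each other. GF lung replicate 2 gave 0.134 with GF blood replicate 2 and -0.134 with the other GF blood library. With the replicate block, 645 genes were called for lung minus spleen in GF mice (844 without it), and the GF calls of Mmp8 (-0.60, adjusted p = 0.0668) and Mmp9 (-0.55, adjusted p = 0.0579) and the SPF call of Retnlg in lung minus blood (-1.63, adjusted p = 0.173) were lost. The ratio results kept their side of the threshold in all 152 recomputations, none of which grouped libraries by replicate number, with 8 sign changes among uncalled values. A planned count test was not run, because the share of low values that were whole reads, 91.4% to 98.7% per library, was held too small. The median depth was lowest in spleen, at 199487 reads. Standard errors were larger in comparisons with blood, which had 2 libraries per group. For Mmp8 in GF mice the SE was 0.21 in lung minus blood and 0.19 in lung minus spleen.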
